A study of Homo sapiens with 7 samples.

Results

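AP-1 is a family of dimeric transcription factors of the basic leucine zipper class. A dimer pairs a Jun protein with a Fos, ATF or BATF protein, or with a second Jun protein, and it binds the motif TGACTCA in promoters and, most often, in distal enhancers. JUN, FOS, FOSB, JUNB and ATF3 are known as genes that respond within minutes to growth factors or stress, and Fos and Jun proteins are known to take part in Ras-driven growth in epithelial cancers, pancreatic cancer among them. Monomethylation of lysine 4 of histone H3 (H3K4me1) is a mark of enhancers and of the flanks of promoters, and KMT2D (also called MLL2) is one of the methyltransferases that place it.

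The 10 genes considered were the Jun genes JUN, JUNB and JUND, the Fos genes FOS, FOSB, FOSL1 and FOSL2, the dimer partners ATF3 and BATF, and MAFK, a small Maf protein that lacks a transactivation domain and pairs with NFE2-related and BACH proteins. They were taken by name, as 10 of 19962 protein-coding genes on the autosomes and the X chromosome. For each gene, every H3K4me1 interval that overlapped the gene body or the 50 kb either side of it (the window) was counted. An interval here means a segment that the peak caller reported as enriched over input DNA. The windows held 95 of the 64843 intervals in NC and 123 of the 92135 intervals in KMT2D-KD.

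NC cells carried a negative control shRNA and were of SW1990, an established line from a human pancreatic cancer. KMT2D-KD cells were SW1990 cells with knockdown of KMT2D by shRNA. ChIP-seq for H3K4me1, KMT2D and EBF2, a transcription factor, was done in both, with 1 library per target and condition, and 1 SW1990 input library whose cells were not assigned to a condition. No value below therefore has a replicate check, and a difference is one between 2 libraries. The KMT2D level of the knockdown cells was not analysed here, and no expression was measured in these libraries. The depth recovered from the lists was 9.89 fragments per 1000 bases for H3K4me1 in NC and 9.29 in KMT2D-KD. It is the lowest background of a list over the width of its narrowest interval (187 bases in NC, 176 in KMT2D-KD). That width was assumed to stand for the fragment length.

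As examples of DNA around summits in these windows, the summit-centred 200 bases of 3 intervals at JUN, FOSL1 and ATF3 are given. They were chosen for holding the AP-1 motif and are on the plus strand of hg38. Capitals mark the motif, which reads TGACTCA on one strand and TGAGTCA on the other.
JUN, NC, chr1:58752731-58752930: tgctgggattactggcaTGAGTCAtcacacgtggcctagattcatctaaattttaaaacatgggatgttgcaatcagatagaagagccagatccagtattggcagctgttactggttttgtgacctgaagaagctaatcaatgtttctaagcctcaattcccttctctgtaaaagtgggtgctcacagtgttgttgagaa
FOSL1, NC, chr11:65906771-65906970: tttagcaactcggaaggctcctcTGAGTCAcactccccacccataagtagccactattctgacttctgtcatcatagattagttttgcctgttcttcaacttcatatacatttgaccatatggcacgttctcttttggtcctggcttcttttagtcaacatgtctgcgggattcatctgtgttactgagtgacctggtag
ATF3, KMT2D-KD, chr1:212595571-212595770: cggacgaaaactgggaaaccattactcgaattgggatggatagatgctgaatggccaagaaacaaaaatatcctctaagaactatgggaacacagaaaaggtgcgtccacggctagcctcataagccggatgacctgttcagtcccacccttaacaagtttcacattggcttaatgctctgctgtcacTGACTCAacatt
The JUN stretch lay in an intron of the long non-coding RNA gene ENSG00000283445, 31.2 kb past the JUN 5′ end, and the FOSL1 stretch was intergenic, 6298 bases before the FOSL1 5′ end. The ATF3 stretch lay in an intron of ATF3 itself, 30.3 kb into the gene. The JUN and FOSL1 intervals were weak, with 10 fragments each and a −log10 q of 2.07 and 2.40, against an NC list median of 3.52. Both of their stretches run past the end of the interval. The FOSL1 and ATF3 intervals overlapped none in the other condition. The motif of the JUN stretch, at chr1:58752748-58752754, was also within 100 bases of the summit of the KMT2D-KD interval at that place, but just past the end of that interval. No repeat annotation was used, so a stretch may belong to a dispersed repeat.

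Such matches were uncommon. In NC, 2 of 95 intervals in the AP-1 windows (2.11%, exact binomial 95% interval 0.256% to 7.40%) had TGACTCA on either strand within 100 bases of the summit. In KMT2D-KD it was 6 of 123 intervals (4.88%, 1.81% to 10.3%). Over all intervals on the same 6 chromosomes the shares were 4.84% in NC and 4.61% in KMT2D-KD, and both lay inside the intervals of the AP-1 shares. At stretches of the same length 2000 bases to either side of the summits in the AP-1 windows, 4.74% in NC and 3.25% in KMT2D-KD held it. The intervals of all shares given here cover counting error only.

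To compare the marking of the AP-1 genes with and without KMT2D knockdown, numbers and covered bases were set side by side. The H3K4me1 list of KMT2D-KD covered more bases around these genes. Covered bases were 41.4 kb in NC against 71.2 kb in KMT2D-KD over the 10 windows (1.15 Mb in all), which is 1.72-fold, against 1.54-fold over the whole lists. The log2 ratio of the 123 to the 95 intervals was 0.37 (95% counting interval −0.025 to 0.77), against 0.51 (0.49 to 0.52) over the whole lists. The list-wide ratio of numbers lay inside the counting interval of the AP-1 windows, and so did no difference.

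Taken gene by gene, 7 of the 10 had more intervals in KMT2D-KD, where 82.7% of the 12722 protein-coding genes with at least 5 intervals in both lists together had more. With equal numbers of top intervals taken from both lists, it was 3 of the 10, and the log2 ratio over the 10 windows was −0.031. The whole lists are then equal in number by construction. No share over all genes is given at that setting, so the 3 of 10 cannot be set against other genes. In the full lists, JUN and BATF had fewer intervals in KMT2D-KD and ATF3 had equal numbers. Covered bases were higher in KMT2D-KD at all 10 genes with windows of 50 kb, as they were at 91.4% of the 12722 genes, with BATF lower in KMT2D-KD in narrower windows or after merging. At 4 of 10 genes (JUND, JUNB, FOSB and FOSL2) covered bases were at least 2 times those of NC, close to the 41.1% of the 12722 genes. The median log2 ratio over the 10 genes was 0.67 for covered bases and 0.44 for numbers, below the medians of 0.84 and 0.65 over the 12722 genes. Only JUND reached 2 times in number, against 36.2% of the 12722 genes. None of the 10 had a number or covered bases at most 1/2 of NC, which was the case for 1.28% of the 12722 genes by number and 0.959% by covered bases.

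**Figure D1:**
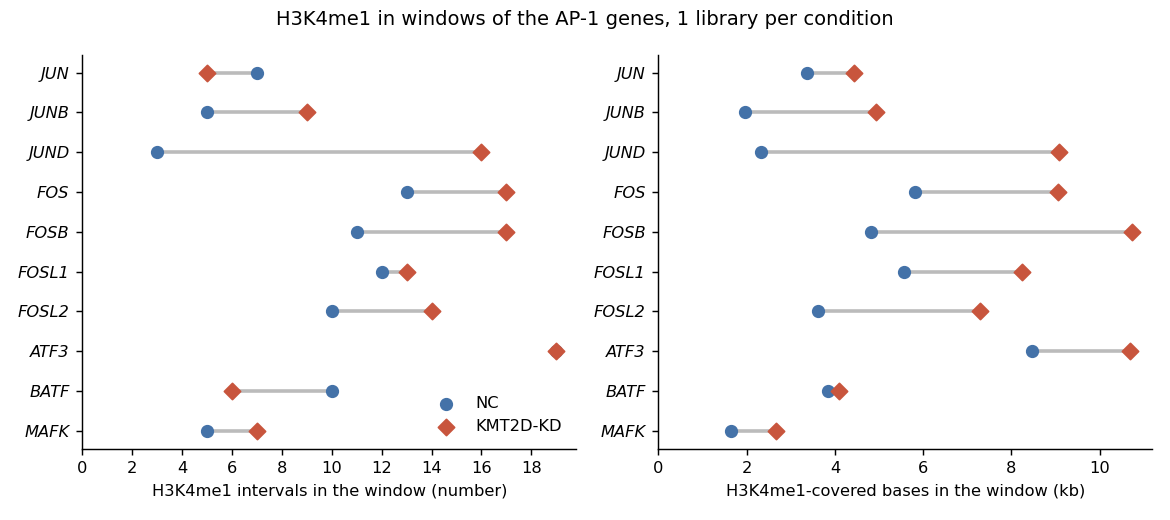
H3K4me1 intervals (left, number) and H3K4me1-covered bases (right, kb) in the window of each AP-1 gene, with NC as blue circles and KMT2D-KD as red diamonds (1 library each, so no error bars). JUND differed most in number, 3 against 16, and all 10 genes lay further right in KMT2D-KD for covered bases.

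The Jun genes differed most among themselves. JUND, the Jun protein that most cells express constitutively, had 3 NC and 16 KMT2D-KD intervals, for a log2 ratio of 2.42 (0.61 to 4.84). It was the only gene of the 10 whose counting interval for the number lay away from 0. That interval held 1.14, the median log2 ratio of numbers over the 786 genes counted on chromosome 19, where JUND lies. Covered bases around JUND were 2325 in NC and 9071 in KMT2D-KD (3.90-fold). A lower ratio of numbers was found at 96.0% of the 12722 genes, and at 87.7% of the 786 genes on chromosome 19. All 3 NC intervals were found again in KMT2D-KD, and 14 KMT2D-KD intervals overlapped none in NC. These 14 were spread from 18.8 kb past the JUND 5′ end to 48.2 kb before it, in introns of IQCN and LSM4, 1 in an untranslated region of LSM4, and between the genes. The nearest to JUND, chr19:18282720-18283423, came within 1098 bases of the 5′ end. It had 17 fragments at its summit and a deposited fold enrichment of 5.43. With only those intervals counted whose nearest protein-coding 5′ end was that of JUND, the numbers were 0 in NC and 7 in KMT2D-KD.

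JUNB, which often opposes JUN in growth control, had 5 NC and 9 KMT2D-KD intervals, for a log2 ratio of 0.85 (−0.88 to 2.77). Its covered bases were 1958 and 4923 (2.51-fold). All 3 places near JUNB that were marked in both conditions were broader in KMT2D-KD. At 3.8 kb upstream of JUNB, 2 NC intervals of 617 bases together were a single KMT2D-KD interval of 1469 bases, chr19:12786925-12788393, with 16 fragments at the highest summit in both conditions. At 6.5 kb upstream, 603 marked bases in NC stood against 1146 in KMT2D-KD. GENCODE places these intervals in introns of HOOK2.

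JUN, the founding member of the family, had 7 NC and 5 KMT2D-KD intervals (log2 ratio −0.49, −2.48 to 1.39), while its covered bases were 3372 and 4439. The number was thus lower and the covered bases higher in KMT2D-KD. About 29 kb past the JUN 5′ end, 2 NC intervals of 1791 bases together were 1 KMT2D-KD interval of 3148 bases, chr1:58753470-58756617. This was the broadest interval in the windows, in an intron of ENSG00000283445. It had a deposited fold enrichment of 8.35, a −log10 q of 13.1 and 21 fragments at the summit against 14 in NC. The strongest NC interval of JUN, chr1:58789435-58789870, lay 5.6 kb upstream in an intron of LINC01135, with 19 fragments and a −log10 q of 9.03. KMT2D-KD had 12 fragments in the interval that overlapped it and 14 in a further interval just beside it. No other protein-coding gene has its body in the JUN window.

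**Figure D2:**
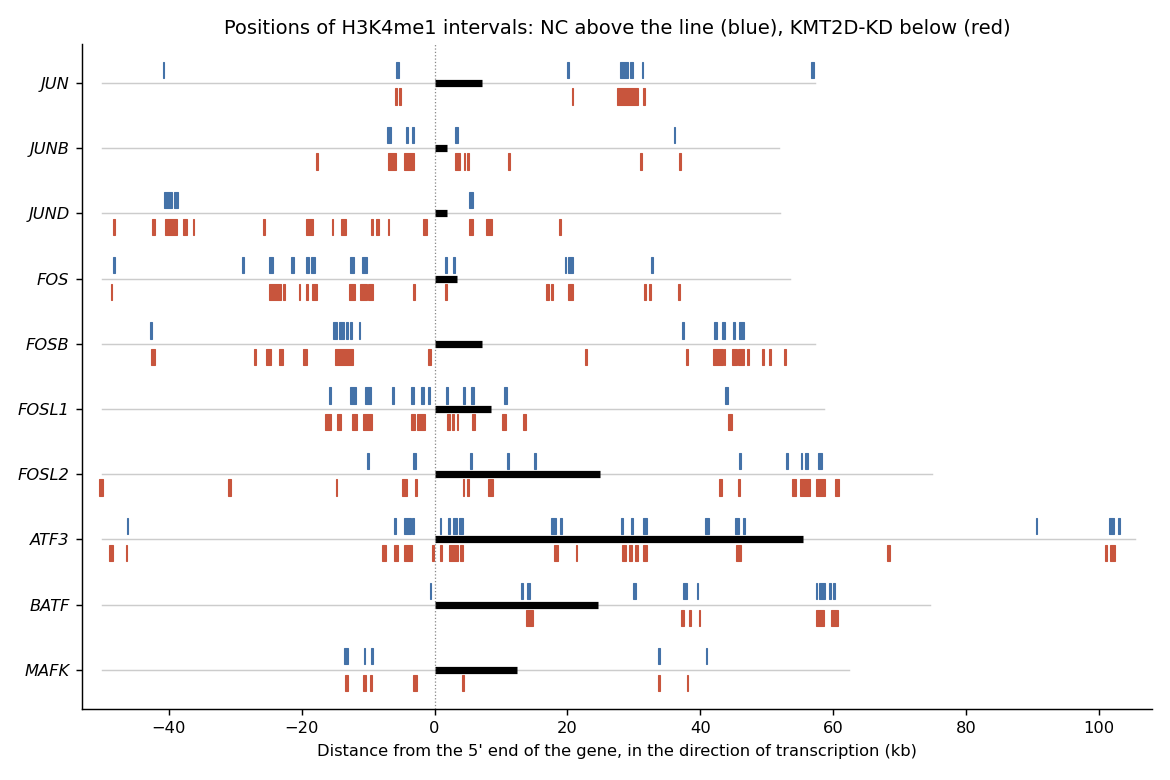
Positions of the H3K4me1 intervals by distance from the 5′ end of each AP-1 gene (kb, in the direction of transcription), with NC intervals in blue above the line, KMT2D-KD intervals in red below it, gene bodies in black and the window as the grey line. JUND has 3 blue marks and 16 red ones, and the joined interval of JUN stands as a single broad red mark near 29 kb.

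Among the Fos genes, FOS itself had 13 NC and 17 KMT2D-KD intervals (log2 ratio 0.39, −0.74 to 1.55), and its covered bases were 5806 and 9065 (1.56-fold). No other protein-coding gene has its body in the FOS window. Most of the marks stood in a row of intervals 10 to 25 kb upstream, in introns of the long non-coding RNA gene ENSG00000258740, and in a second group 17 to 37 kb downstream. At 24 kb upstream the NC interval of 605 bases was matched by one of 1822 bases in KMT2D-KD, with 19 and 17 fragments. At 20 kb downstream the widths were alike, 629 and 624 bases, and the fragments at the summit were 11 in NC and 20 in KMT2D-KD. That place, chr14:75298966-75299589, was the strongest KMT2D-KD interval of FOS, with a −log10 q of 10.4. KMT2D-KD alone had an interval 2913 bases before the FOS 5′ end, with 14 fragments.

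FOSB, a partner of Jun proteins known for its stable splice form in neurons, had 11 NC and 17 KMT2D-KD intervals (log2 ratio 0.63, −0.55 to 1.87). Its covered bases were 4814 and 10740 (2.23-fold), the highest covered total of the 10 in KMT2D-KD. At 13.7 kb upstream, 4 NC intervals of 1834 bases together were 1 KMT2D-KD interval of 2760 bases, chr19:45452980-45455739, with 17 and 20 fragments. At 46 kb downstream, in an intron of VASP, the summit held 15 fragments in NC and 23 in KMT2D-KD, where the −log10 q of 13.6 was the highest of any interval in the windows. A run of 4 KMT2D-KD intervals between 19 and 27 kb upstream, in introns of ERCC1 by GENCODE, had no NC interval.

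FOSL1 (FRA1), the Fos protein most tied to invasive epithelial cancers, had 12 NC and 13 KMT2D-KD intervals (log2 ratio 0.12, −1.13 to 1.38). Its covered bases were 5563 and 8240 (1.48-fold), and its window, with the bodies of 10 other protein-coding genes, was the most crowded of the 10. Among intervals with a −log10 q of 5 or more the numbers were 3 and 8. The median −log10 q of the whole lists was also higher in KMT2D-KD, 4.02 against 3.52 in NC. At 2.0 kb upstream the marked bases were 443 and 1091 with 17 and 16 fragments, and in a FOSL1 intron 2.1 kb into the gene the fragments were 11 and 18. FOSL2 (FRA2) had 10 NC and 14 KMT2D-KD intervals (log2 ratio 0.49, −0.79 to 1.82), and covered bases of 3616 and 7282 (2.01-fold, just over the bound of 2). At FOSL2, 5 of the 10 NC intervals and 4 of the 14 KMT2D-KD intervals were shared. Of the 3 NC intervals in FOSL2 introns and the 3 in KMT2D-KD none overlapped, though 1 of the former and 2 of the latter lay within 1 kb of an interval of the other list.

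ATF3, a stress-induced partner and often a repressor, had the most intervals of the 10 genes, 19 in each condition, and covered bases of 8461 and 10687 (1.26-fold). Its window was also the longest, since the gene body spans 55.4 kb. Of these, 14 NC and 12 KMT2D-KD intervals were shared. The intron interval near 31 kb into ATF3, chr1:212596660-212597301, had 19 fragments in NC and 25 in KMT2D-KD, the most at any summit in the windows. BATF, a partner of Jun proteins best known in lymphocytes, had the lowest ratio of numbers, with 10 NC and 6 KMT2D-KD intervals (log2 ratio −0.74, −2.48 to 0.87). Its covered bases were 3849 and 4086 (1.06-fold), and with 10 kb either side they were 0.724-fold. In a BATF intron 14 kb into the gene, 14 fragments in NC stood against 22 in KMT2D-KD, over 451 and 1053 bases. Another NC interval beside it, with 16 fragments, overlapped none in KMT2D-KD.

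MAFK had the fewest covered bases of the 10 genes in both conditions, 1649 and 2667 (1.62-fold), in 5 NC and 7 KMT2D-KD intervals (log2 ratio 0.49, −1.39 to 2.48). No NC interval of MAFK reached a −log10 q of 5, and 2 of KMT2D-KD did. At 33.8 kb downstream the summit held 10 fragments in NC and 18 in KMT2D-KD.

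The AP-1 genes with the largest ratios shared a chromosome. JUND, JUNB and FOSB all lie on chromosome 19, and they were 3 of the 4 genes at 2 times the covered bases or more. Over the whole of chromosome 19 KMT2D-KD covered 1.03 Mb against 0.440 Mb in NC, 2.34-fold, and 73.7% of the 786 genes counted there were at 2 times or more. The other 5 chromosomes that carry AP-1 genes lay between 1.36-fold on chromosome 11 and 1.63-fold on chromosome 2. Against the genes of chromosome 19 only, 68.7% had a lower covered-base ratio than JUND, 44.1% than JUNB and 35.0% than FOSB, so JUNB and FOSB were near the middle of their chromosome. Without the 3 genes on chromosome 19, the other 7 had 76 NC and 81 KMT2D-KD intervals, a log2 ratio of 0.092 (−0.38 to 0.56), and covered bases of 32.3 kb and 46.5 kb (1.44-fold). Without JUND alone the number was 92 against 107 (0.22, −0.20 to 0.64). What makes chromosome 19 differ was not tested, and the input was a single library whose condition is not given.

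**Figure D3:**
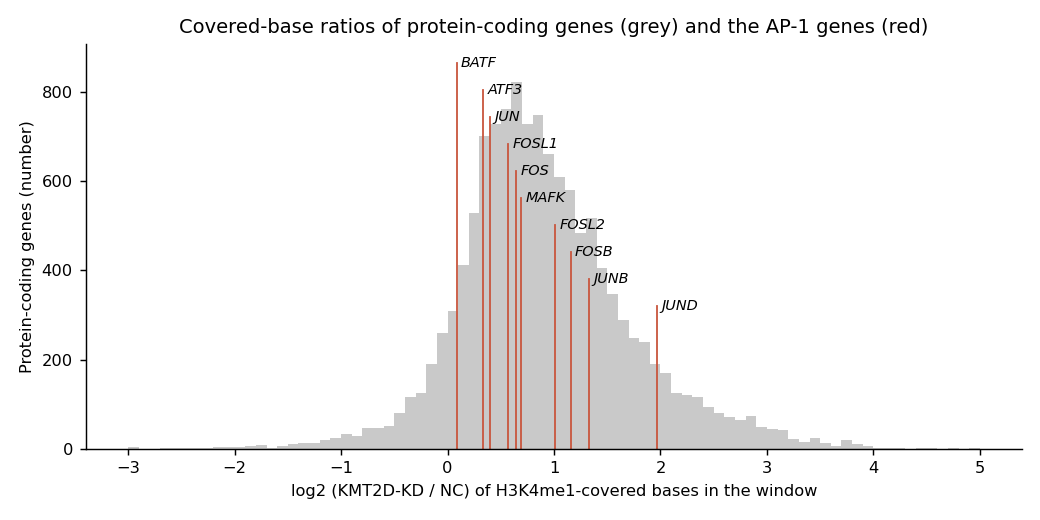
Histogram of the log2 ratio (KMT2D-KD / NC) of H3K4me1-covered bases in the windows of the protein-coding genes counted, genes with no covered base in NC or in KMT2D-KD left out and values beyond −3 and 5 set to those bounds, with the 10 AP-1 genes as red lines whose heights have no meaning. BATF lies lowest at 0.086 and JUND highest at 1.96, and the median over the 12722 genes was 0.84.

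**Figure D4:**
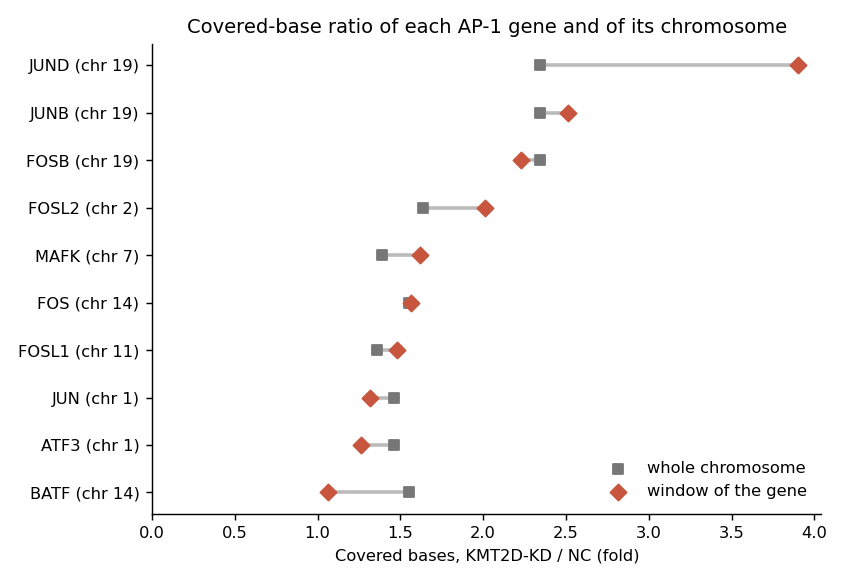
Fold of H3K4me1-covered bases (KMT2D-KD / NC) in the window of each AP-1 gene (red diamonds) and over its whole chromosome (grey squares). JUNB (2.51) and FOSB (2.23) lie close to chromosome 19 as a whole (2.34), JUND (3.90) lies above it, and BATF (1.06) lies below chromosome 14 (1.55).

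Intervals that occur in 1 condition alone were then separated from those found in both by at least 1 base. In NC, 65 of 95 intervals (68.4%, 58.1% to 77.6%) had a KMT2D-KD partner, against 69.7% for the whole list. In KMT2D-KD, 55 of 123 (44.7%, 35.7% to 53.9%) had an NC partner, against 46.6%. Of the 30 NC intervals with no partner, 18 lay within 1 kb of a KMT2D-KD interval and 12 farther away. Of the 68 KMT2D-KD intervals with no partner, 24 lay within 1 kb of an NC interval and 44 farther away, 13 of them at JUND. Intervals found in 1 condition alone were the weaker ones: their median −log10 q was 2.75 in NC and 3.49 in KMT2D-KD, against 3.72 and 5.53 for shared ones. The whole lists had the same order, with medians of 2.85 and 3.32 for intervals alone and 4.16 and 5.30 for shared ones. By bases, 25.7 kb were marked in both conditions, 15.7 kb in NC alone and 45.5 kb in KMT2D-KD alone. The whole KMT2D-KD list was also the longer one, with 92135 intervals against 64843. Neither the split by bases nor that at 1 kb is given over the whole lists, so they cannot be set against other genes.

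Intervals were broader in KMT2D-KD. Their median width in the AP-1 windows was 353 bases in NC (189 to 1253) and 476 bases in KMT2D-KD (180 to 3148), where the whole lists had medians of 369 and 375 bases. Intervals of at least 1000 bases were 3 of 95 in NC (3.16%, 8.50% in the whole list) and 17 of 123 in KMT2D-KD (13.8%, 11.4% in the whole list). At the 54 places marked in both conditions, the marked bases were higher in KMT2D-KD at 40 and the median ratio was 1.33-fold. Over 39978 such places in the whole lists, they were higher at 65.9% and the median ratio was 1.21-fold.

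The signal at the shared places was compared through the summits. The fragments at the highest summit summed to 761 in NC and 819 in KMT2D-KD over the 54 places. Scaled by the genome-wide background of each list, the log2 ratio of these sums was 0.28 (counting interval 0.14 to 0.43). With that scaling the median log2 ratio over the 54 places was 0.18, below the 0.26 over the 39978 places of the whole lists. For the summed fragments, the log2 ratio changed with the scaling. Scaled by the fragments per 1000 bases it was 0.20 (0.051 to 0.34), and without scaling 0.11 (−0.038 to 0.25). After scaling, KMT2D-KD was higher at 39 of 54 places, against 73.9% of the 39978 places. No single place differed beyond counting error, since summits held only 8 to 25 fragments. The highest ratios were at FOS, 20 kb downstream (11 against 20), and at MAFK, 33.8 kb downstream (10 against 18). The lowest were at FOSL2, 2.9 kb upstream (13 against 8), and in an LSM4 intron 40 kb upstream of JUND (21 against 13).

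**Figure D5:**
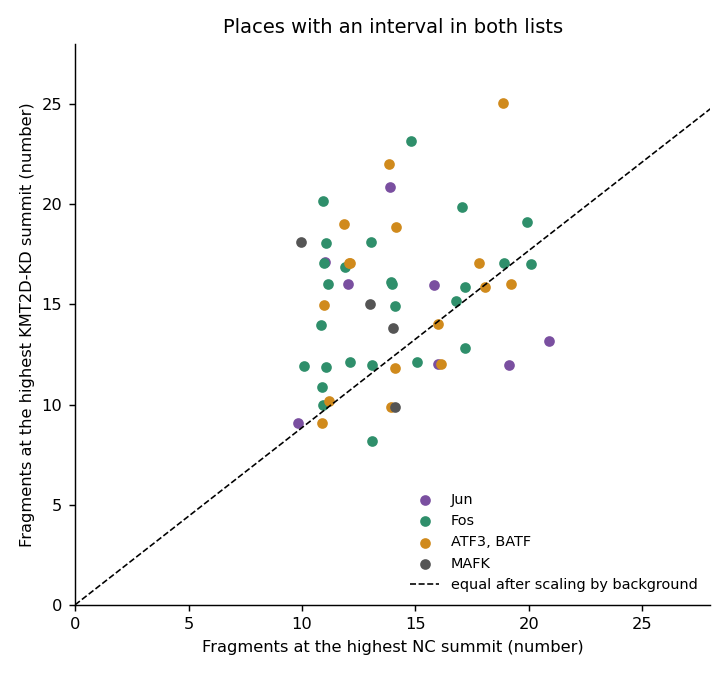
Fragments at the highest summit of each of the 54 places marked in both conditions, NC on the horizontal and KMT2D-KD on the vertical axis (numbers, shifted slightly at random so that equal points can be seen), coloured by group of genes. The dashed line marks equal signal after scaling by the genome-wide background (slope 0.885), and 39 of the 54 points lie above it.

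At the promoters, taken as 1000 bases either side of the 5′ end, marking differed by gene. In NC, FOSL1, ATF3 and BATF had an interval there, 3 of 10 where 6.45% of all genes had one. In KMT2D-KD it was FOSB and ATF3, 2 of 10, against 11.9% of all genes. FOSB was thus marked in KMT2D-KD alone, as were 7.52% of all 19962 genes, and FOSL1 and BATF in NC alone, as were 2.06%. Each rested on a single interval. The FOSB one, chr19:45467068-45467404, had 11 fragments and a −log10 q of 4.21, that of FOSL1, chr11:65901325-65901563, 13 fragments and 1.70, and that of BATF, chr14:75521725-75521975, 11 fragments and 2.54. The nearest KMT2D-KD interval of FOSL1 lay 1497 bases from its 5′ end, just past the bound. With 2000 bases either side, 4 genes were marked in NC and 5 in KMT2D-KD, and FOSL1 was marked in both conditions. At a −log10 q of at least 5 no AP-1 promoter was marked in either condition. No interval lay over the 5′ end itself at any of the 10 genes, where 0.601% of all genes in NC and 0.957% in KMT2D-KD had one. The nearest interval edge lay 480 bases (BATF) to 11191 bases (FOSB) away in NC, and 68 bases (ATF3) to 13753 bases (BATF) away in KMT2D-KD.

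The KMT2D-KD interval nearest to a 5′ end, chr1:212564988-212565266 before ATF3, overlapped 110 bases of a RefSeq promoter record of ATF3 (GRCh38.p14, plus strand). These bases are printed because no other AP-1 promoter record held an interval of either list. They run over chr1:212565157-212565266 and end 68 bases before the 5′ end.
ATF3 promoter, KMT2D-KD interval: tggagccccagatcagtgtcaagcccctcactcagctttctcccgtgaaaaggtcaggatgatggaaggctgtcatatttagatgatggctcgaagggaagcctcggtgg
Neither TGACTCA nor TGACGTCA, the motif of CREB and ATF dimers, was in this promoter record. A further ATF3 promoter record, chr1:212614768-212615067, lay inside the gene, overlapped no interval of either list and held neither motif. Of the promoter records of 8 members that matched by symbol, that of FOSL2 held TGACTCA and that of JUND held TGACGTCA, which begins 200 bases before the start. TGACTCA was in 4.92% and TGACGTCA in 1.85% of 34961 promoter records, both strands searched. FOSL1 and MAFK had no record.

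KMT2D and EBF2 intervals were looked for in the same windows. There were none, in 0 of 238 NC KMT2D intervals, which allows a share of up to 1.26% (3 counts of the total), and 0 of 318 in KMT2D-KD, which allows up to 0.943%. For EBF2 there were 0 of 293 in NC and 0 of 311 in KMT2D-KD, which allow up to 1.02% and 0.965%. Of the H3K4me1 intervals, 0.15% in NC and 0.13% in KMT2D-KD lay in these windows, below all of these limits. With lists this short, the zeros cannot show that these genes differ from others. The nearest KMT2D interval to an AP-1 5′ end was 107 kb from MAFK in NC and 384 kb from FOSL1 in KMT2D-KD, and the nearest EBF2 interval was 1042 kb from BATF in both.

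The relatives and regulators of AP-1 gave a background from the same pathway. Of 24 other leucine zipper genes that dimerise or share motifs with AP-1, 21 had at least 5 intervals, of which 19 had more in KMT2D-KD, against 82.7% of the 12722 genes, and 2 had equal numbers. In number 5 reached 2 times, against 36.2%. CREB1, the cAMP-responsive activator, was highest in covered bases at 6.20-fold and ATF6, a sensor of unfolded protein, lowest at 1.11-fold. Of 16 genes of the MAP kinase pathways and ternary complex factors that switch on FOS and JUN, 12 were counted, of which 9 had more intervals in KMT2D-KD, 2 had fewer and 1 had equal numbers. Of the 12, 5 reached 2 times in number, against 36.2%, and 8 in covered bases, against 41.1%. MAPK10, a Jun kinase best known in neurons, was highest in covered bases (8.21-fold, 2 NC and 13 KMT2D-KD intervals), and MAPK14 (p38α) lowest (0.686-fold, 9 and 7 intervals).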

How the data were processed

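ChIP-seq peak lists were analysed for H3K4me1, KMT2D and EBF2, 1 library per target and condition. The submitters' processing notes name hg38, BWA, MACS2 and HOMER, with versions and settings not given in the sources used here. The deposited lists give, per interval, the authors' fold enrichment over input (a ratio) and −log10 p-value and −log10 q-value. A score per interval was also deposited by the authors and not analysed here.

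Intervals were counted as deposited, against GENCODE 44 genes with coordinates from 1. The fragments at a summit were recovered by solving fold enrichment and p-value for a whole number, to within 0.001 in −log10 p, which succeeded for 100% (NC) and 99.9989% (KMT2D-KD) of the H3K4me1 intervals. Fold enrichment was taken as fragments over background with 1 added to each, and the p-value as a Poisson tail. Fragments were scaled by the ratio of the lowest backgrounds of the lists, which depends on depth and on the fragment length used. Shares carry exact Clopper-Pearson 95% intervals, except that shares of 0 carry 3 divided by the number counted as upper limit, and ratios of numbers carry intervals derived from them. No test between conditions was made, because intervals of 1 library are not replicates. The recovery was tested on values simulated with the same formulas, which cannot show that the deposited values follow them. The counting of intervals was tested against a direct count on simulated intervals. Python 3.11.15, numpy 2.4.6, scipy 1.17.1, pandas 2.3.3 and matplotlib 3.10.9 were used.

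The genes, gene lists and alternatives were chosen with earlier results of these data known. Named intervals were, for each gene and list, the strongest, the broadest and the nearest to the 5′ end. Others were named after their values were seen. Of the stretches chosen for printing, the highest −log10 q per list among those with the motif, part is not reported here.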

Additional observations from a re-analysis of the deposited data

How the results depend on the processing

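Of 61 alternative values for the 10 genes together, 43 stayed within the counting interval of the reported value, or within 1.5 times a count, and 18 moved. The log2 ratio of number, whose counting interval included 0, took the opposite sign with equal numbers of top intervals. At a −log10 q of 5 or more, the log2 ratio of number was 0.90 and of covered bases 1.33, the share of KMT2D-KD intervals found in NC was 32.6%, 0 promoters were marked in either list (0 in NC, 0 in KMT2D-KD), and the share of NC intervals with the motif was 0%. No value over the whole lists is given at this cut. Their median −log10 q was higher in KMT2D-KD (4.02) than in NC (3.52), so these ratios are not set apart from the whole lists. With equal numbers of top intervals, by construction a shorter KMT2D-KD list, the log2 ratio of number was −0.031 and 3 genes had more intervals in KMT2D-KD. Counting an overlap only from 50% of the interval gave shares of 52.6% in NC and 22.8% in KMT2D-KD, and counting partners within 1 kb gave 87.4% and 64.2%, both by construction. Promoters of 2000 bases either side gave 4 marked genes in NC and 5 in KMT2D-KD, against 3 and 2 in the main setting, so the order changed. Promoters of 500 bases gave 1 in NC (BATF) and 1 in KMT2D-KD (ATF3). No share over all genes is given at these bounds. Searching 50 bases either side of the summit gave motif shares of 0% and 1.63%. Without scaling, the log2 ratio of fragments was 0.11. Among 67 values of single genes, 66 stayed and 1 moved, FOSL1 at a −log10 q of 5 or more (log2 ratio 1.42). The counting intervals of single genes are wide, so staying within them did not mean keeping the direction. JUN had 1 NC and 2 KMT2D-KD intervals with 10 kb either side. BATF had 3 and 4 at a −log10 q of 5 or more. Both had fewer in KMT2D-KD in the main setting. BATF covered bases were 0.897-fold with 25 kb either side and 0.835-fold after merging intervals within 1 kb. Leaving out JUND or the genes on chromosome 19, and scaling by fragments per 1000 bases (log2 ratio 0.20), were chosen after seeing the data. Where no construction is named, the cause was not tested. No paired analysis was possible because each condition had 1 library. Numbers of intervals limit what single genes can show, at 3 to 19 intervals per gene and condition.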

Other observations

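Other genes that the same stimuli or AP-1 itself act on were marked as follows. Of 12 immediate-early genes, 10 had at least 5 intervals in both lists together and all 10 had more in KMT2D-KD, against 82.7% of the 12722 genes. They had 133 NC and 199 KMT2D-KD intervals and a median log2 ratio of covered bases of 0.88, against 0.84. KLF6, a zinc finger factor, was highest in covered bases at 4.19-fold, with 4 and 8 intervals, and DUSP5, a MAP kinase phosphatase, lowest at 1.20-fold, with 19 and 22. IER2, which lies on chromosome 19, had 6 NC and 21 KMT2D-KD intervals.

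Of 18 known AP-1 target genes, 12 were counted, and 9 had more intervals in KMT2D-KD, against 82.7% of the 12722 genes, and 3 had fewer. Their intervals summed to 145 in NC and 176 in KMT2D-KD, and covered bases were 1.38-fold. HMOX1, a haem-degrading enzyme, was highest at 3.12-fold, with 3 and 8 intervals. CXCL8, the neutrophil-attracting chemokine, was lowest, with 5 NC intervals, 1 KMT2D-KD interval and covered bases at 0.568-fold.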
